A study of Mus musculus with 13 samples.

Results

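The 10 genes described here are the feedback genes of the ERK pathway: the phosphatases Dusp4, Dusp5 and Dusp6, the Sprouty genes Spry1, Spry2 and Spry4, the related Spred1, and the transcription factors Etv1, Etv4 and Etv5. They were taken by name, with earlier results of these data known, and are 10 of the 35498 genes summed from the transcript tables. All 10 passed the filter on low counts and are among the 13044 genes tested. They were measured in 13 poly(A) RNA libraries of mouse melanoma cell lines, grown in culture for a study of soluble adenylyl cyclase (sAC, the product of Adcy10, an enzyme that makes cyclic AMP) switched on by doxycycline in chosen places in the cell. Lines titled NLS, with numbers 6, 7 and 16, were sampled without doxycycline (t0), after 6 h (t6) and after 48 h (t48), and their compartment label in doxycycline is nuclear. Lines titled LacZ, with numbers 10 and 12, were sampled after 48 h of doxycycline and without it, and no LacZ library at 6 h was analysed here. Each NLS group has 3 libraries and each LacZ group has 2, 1 per line. The LacZ libraries at 48 h carry the compartment label nuclear too, against their titles, and are grouped here by title. The labels do not say whether a line is 1 clone, which tumour it came from or which promoter drives the construct. No label names separate cultures beyond the line numbers, and a p-value here covers no more than the spread among the libraries, which may be technical in part.

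Depth was even, at 18512887 to 22584628 estimated reads per library. Adcy10, the gene that an sAC construct should raise, did not follow the time labels in lines 6 and 7. Line 6 held 339 to 371 CPM (counts scaled to a common library size) over its 3 libraries and line 7 held 181 to 200 CPM. Line 16 held 0.671 to 1.22 CPM and the LacZ lines 0 to 0.167 CPM. Every time named below is therefore a label, and every direction in time is a difference between libraries labelled with those times. The melanocyte label was checked against 7 markers, which summed to 3.24 to 5.86 CPM over all 13 libraries. Mitf lay at 2.76 to 5.37 CPM, Tyrp1 was at 0 in every library, and Sox10 and Mlana reached at most 0.0512 and 0.0499 CPM, so the defining markers of pigment cells were at or near 0. The 7 fibroblast markers, mostly collagens, summed to 10000 to 12200 CPM at NLS t0 and 7790 to 9440 CPM at NLS t6. The sums were 16000 to 17100 CPM at NLS t48, 7130 to 7520 CPM at LacZ t48 and 8070 to 8220 CPM at LacZ t0. Over all 13 libraries Pdgfrb lay at 161 to 221 CPM, Pdgfra at 12.5 to 256 CPM and Dcn at 3.13 to 18.5 CPM. Thy1 reached at most 0.0942 CPM. The 4 leukocyte markers, mostly Cd68, summed to 11.5 to 12.7 CPM at NLS t0, 12.8 to 14.5 CPM at NLS t6, 7.64 to 8.8 CPM at NLS t48, 7.68 to 9.06 CPM at LacZ t48 and 5.79 to 6.7 CPM at LacZ t0, while Ptprc reached at most 0.0512 CPM and Adgre1 was at 0. The keratinocyte markers summed to at most 2.87 CPM and the endothelial markers to at most 4.22 CPM, with Krt5 and Cdh5 at most 0.0536 and 0.0499 CPM and Kdr at 0. These sums move with the groups compared below, and their part in the results was not tested. In bulk RNA, fewer cells of a type and less RNA per cell cannot be told apart.

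ERK is the last kinase of the cascade that runs from receptor tyrosine kinases through RAS, RAF and MEK. Active ERK raises transcription of its own inhibitors, so the mRNA of these genes is commonly read as a record of recent ERK signalling. DUSP phosphatases remove the activating phosphates from ERK, Sprouty and SPRED proteins act upstream at the level of the receptor and RAS, and ETV1, ETV4 and ETV5 form the PEA3 group of ETS factors, which carry the signal on to other genes. In melanoma, where mutations of BRAF and NRAS are common, the same genes are widely used as readouts of the pathway.

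Among the NLS libraries the phosphatases and Etv4 were highest at the labelled t6, and most members lay lower at t48 than at t6. At NLS t6 against NLS t0, 5 of the 10 members were higher (Dusp4, Dusp5, Dusp6, Spry4 and Etv4) and 0 were lower, by edgeR's quasi-likelihood test with Benjamini-Hochberg adjustment over all 13044 genes and a threshold of 0.05. Of all genes, 11.6% were higher and 9.23% lower in that comparison. At NLS t48 against NLS t6, 7 members were lower (Dusp5, Dusp6, Spry2, Spry4, Etv1, Etv4 and Etv5) and 1, Spry1, was higher, against 13.6% and 14.6% of all genes (28.2% in either direction). Set against NLS t0, the t48 libraries had 3 members higher (Dusp4, Spry1 and Etv4) and 3 lower (Dusp5, Spry2 and Etv1), against 14.8% and 11.3% of all genes. The median log2 fold change of the 10 members was 0.59 for t6 against t0, -0.62 for t48 against t6 and 0.00 for t48 against t0, while the median of all genes tested lay between -0.01 and 0.00. The 3 comparisons share libraries and are not independent of each other.

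With cell line as a block, 7 members were higher at t6 against t0, among 34.7% of all genes called in either direction. That fit called 20.8% without the block. At t48 against t0 the block left 6 members called while the share of all genes called was 39.8%, against 26.1% without it. The count at t48 against t0 was 1 without line 6, where 12.4% of all genes were called, and 3 without line 16, where 16.4% were. It was 2 without the t48 library of line 6, with 2463 of 12983 genes called, and 3 without the t0 library of line 16, with 22.7%.

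**Figure D1:**
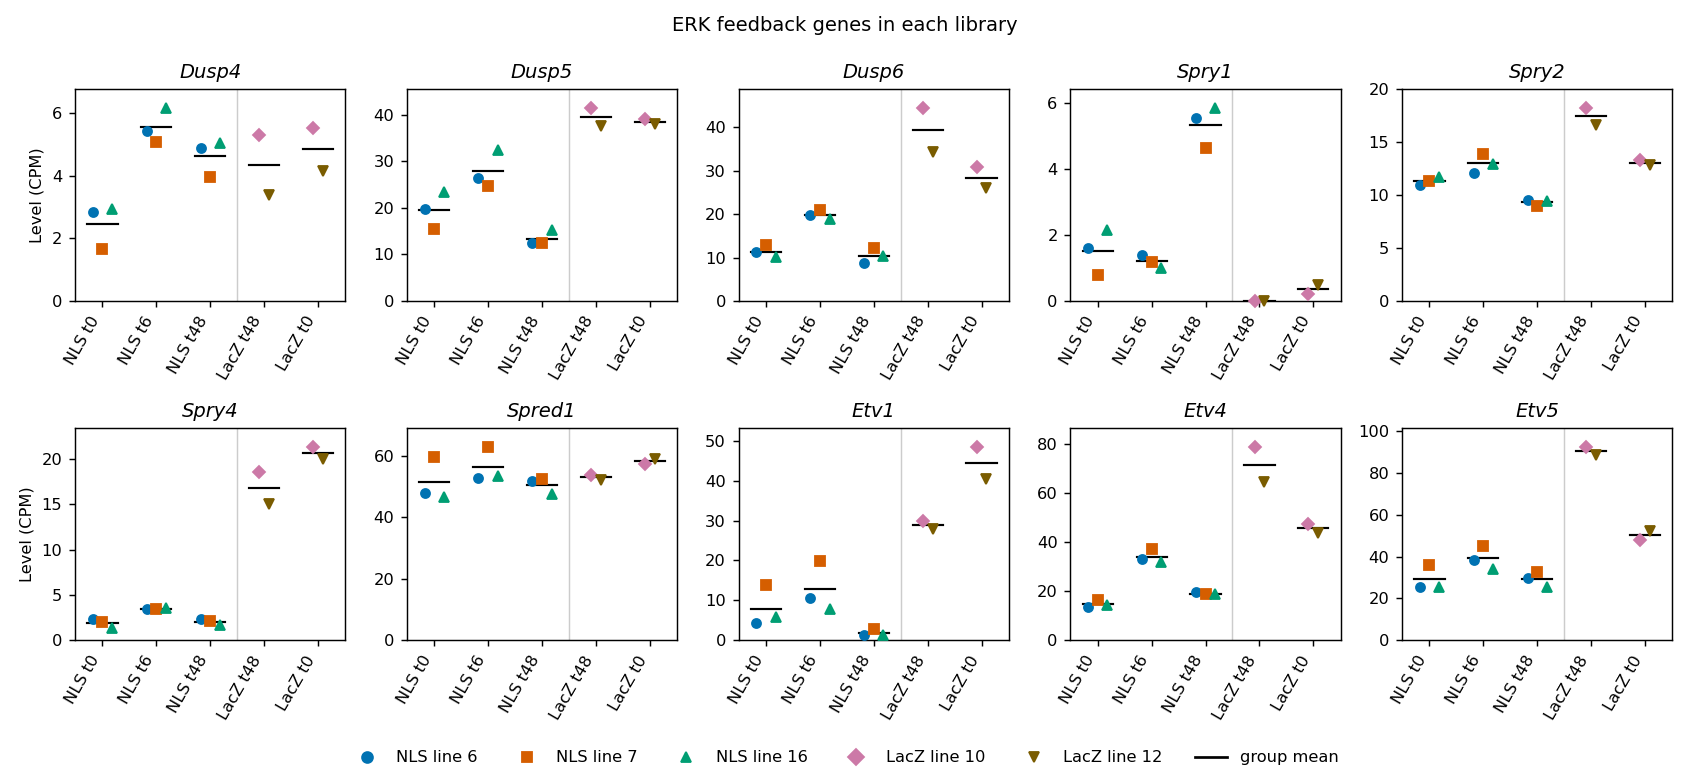
Level of each ERK feedback gene in every library, in CPM on a linear axis that starts at 0 in each panel; each point is 1 library, its shape and colour give the cell line number, horizontal bars are group means, and the groups run from NLS t0, t6 and t48 to LacZ t48 and LacZ t0. Dusp6 lies at 18.96 to 20.99 CPM at NLS t6, above the other NLS groups and below the LacZ groups, while Spry1 is at 0 in both LacZ t48 libraries.

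Per unit of transcript length, Etv4 had the highest median over the 13 libraries, at 43.0 TPM (a length-scaled unit of abundance, range 15.6 to 88.5). Spred1 followed at 21.3 TPM (18.4 to 25.1), Dusp5 at 19.4 TPM (9.67 to 29.3), Dusp6 at 14.7 TPM (6.28 to 34.6), Etv5 at 13.9 TPM (9.36 to 32.8), Spry2 at 12.0 TPM (8.88 to 16.2) and Etv1 at 6.80 TPM (0.418 to 36.1). Dusp4 at 3.54 TPM (1.34 to 4.58), Spry4 at 1.15 TPM (0.434 to 6.84) and Spry1 at 1.04 TPM (0 to 4.996) were the lowest. The ranges of neighbours in this order overlap, and the order differs between groups. The TPM of Etv4 include short non-coding transcripts, 1 of which held 13.1% of its reads on average. Whether Etv4 would rank highest on its coding transcripts alone was not tested. At NLS t0 Spred1 averaged 19.99 ± 1.904 TPM and Etv4 19.35 ± 3.862 TPM (SD, n = 3). At LacZ t48 Etv5 averaged 32.42 ± 0.5441 TPM, Dusp6 31.51 ± 4.316 TPM and Dusp5 28.07 ± 1.185 TPM, above Spred1 at 21.26 ± 0.727 TPM (SD, n = 2). Spred1 varied least between libraries and Spry1 and Etv1 most.

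Dusp4 (ENSMUSG00000031530, GRCm38 chromosome 8, 34807297 to 34819894, plus strand) encodes a nuclear phosphatase of ERK and related kinases. It had 2.83, 1.66 and 2.92 CPM at NLS t0 in lines 6, 7 and 16, 5.43, 5.08 and 6.15 CPM at t6, and 4.90, 3.95 and 5.04 CPM at t48. All 3 libraries at t6 and all 3 at t48 lay above every library at t0, and those at t48 lay below every library at t6. The log2 fold change was 1.17 at t6 against t0 (SE 0.23, edgeR adjusted p = 0.00273) and 0.91 at t48 against t0 (SE 0.23, adjusted p = 0.0103; 0.0811 without line 6). Against t6, Dusp4 at t48 had a log2 fold change of -0.27 (adjusted p = 0.402), which did not pass.

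Dusp5 (ENSMUSG00000034765, chromosome 19, 53529109 to 53542431, plus strand) encodes a nuclear phosphatase specific to ERK. Its levels in lines 6, 7 and 16 were 19.9, 15.4 and 23.4 CPM at NLS t0, 26.5, 24.7 and 32.5 CPM at t6, and 12.5, 12.4 and 15.2 CPM at t48. The NLS groups did not overlap, with t48 lowest and t6 highest. It was higher at t6 against t0 (log2 fold change 0.52, SE 0.14, edgeR adjusted p = 0.0214), lower at t48 against t6 (-1.06, SE 0.15, adjusted p = 0.000161) and lower at t48 against t0 (-0.55, SE 0.15, adjusted p = 0.0158). The first and last of these calls were lost without line 6 (adjusted p = 0.132 and 0.163), and each in 4 of 15 alternative fits.

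Dusp6 (ENSMUSG00000019960, chromosome 10, 99263231 to 99267489, plus strand) encodes the cytoplasmic ERK phosphatase. In the same order of lines it had 11.2, 12.9 and 10.1 CPM at NLS t0, 19.71, 20.99 and 18.96 CPM at t6 and 8.71, 12.2 and 10.46 CPM at t48. Each line was higher at t6 than at its other times, and t48 overlapped t0. The log2 fold change was 0.80 at t6 against t0 (SE 0.14, edgeR adjusted p = 0.0011), -0.93 at t48 against t6 (SE 0.14, adjusted p = 0.000236) and -0.12 at t48 against t0 (adjusted p = 0.567). Both calls were kept in all 15 alternative fits.

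The promoters of Dusp5, Dusp6 and Spry1 are printed because Dusp5 and Dusp6 were lower, and Spry1 higher, at the labelled t48 than at t6. Dusp5 was also the only member with motif matches in the windows searched. Sequences are from RefSeq, build GRCm38.p6, all on the plus strand. They are printed up to the base before the gene start given above, and positions are counted from the RefSeq start, which for Dusp5 lies further downstream. In the Dusp5 window capitals mark the matches, a pair of adjoining CArG boxes (the motif of serum response factor, a partner of ETS factors) that begin 82 and 72 bases before the RefSeq start, and a CRE motif, bound by the cAMP-responsive factor CREB, on the reverse strand (ACGTCA, 56 bases before it). The windows of Dusp6 and Spry1 hold no match and are all in lower case.
Dusp5 chr19:53528895-53529108: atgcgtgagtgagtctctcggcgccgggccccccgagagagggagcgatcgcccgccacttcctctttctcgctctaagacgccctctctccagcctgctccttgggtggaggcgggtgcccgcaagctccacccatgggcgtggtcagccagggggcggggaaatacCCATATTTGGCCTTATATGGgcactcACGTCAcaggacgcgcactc
Dusp6 chr10:99262981-99263230: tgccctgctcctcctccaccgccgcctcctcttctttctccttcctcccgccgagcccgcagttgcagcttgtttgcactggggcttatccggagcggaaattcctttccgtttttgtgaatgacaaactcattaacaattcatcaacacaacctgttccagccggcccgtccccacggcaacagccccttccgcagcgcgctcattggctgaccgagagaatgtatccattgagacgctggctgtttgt
Spry1 chr3:37639697-37639946: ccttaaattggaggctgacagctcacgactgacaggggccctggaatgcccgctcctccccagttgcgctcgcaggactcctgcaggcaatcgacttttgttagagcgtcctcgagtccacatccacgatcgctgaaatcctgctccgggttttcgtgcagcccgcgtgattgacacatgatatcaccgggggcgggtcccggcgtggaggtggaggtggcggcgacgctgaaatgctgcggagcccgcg

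Member windows on chromosome 18, where Spry4 lies, were left out. RefSeq windows from 250 bases before to 50 bases after the start remained for 7 of the 10 members, 9 windows in all. Both strands were searched. The ETS motif CCGGAAG was in 8.86% of 32851 mouse promoter windows and in 0 of the 9, the CRE motif TGACGT in 7.51% and in 1, the AP-1 motif TGANTCA in 7.81% and in 0, and the CArG box in 1.63% and in 1. The CArG box was added after the windows had been read. The matches are descriptions of these letters and windows.

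Spry1 (ENSMUSG00000037211, chromosome 3, 37639947 to 37644598, plus strand), a Sprouty inhibitor of receptor signalling, was highest at the labelled t48. Its levels in lines 6, 7 and 16 were 1.59, 0.786 and 2.16 CPM at NLS t0, 1.40, 1.19 and 1.01 CPM at t6 and 5.55, 4.62 and 5.84 CPM at t48. The 3 libraries at t48 stood above all others, and t0 and t6 overlapped. Spry1 was higher at t48 than at t6 (log2 fold change 2.14, SE 0.32, edgeR adjusted p = 0.000347) and than at t0 (1.82, SE 0.31, adjusted p = 0.00106), and both calls were kept in all 15 alternative fits. At t6 against t0 the log2 fold change was -0.32 (SE 0.34, adjusted p = 0.563), with line 7 higher and lines 6 and 16 lower at t6.

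Spry2 (ENSMUSG00000022114, chromosome 14, 105891947 to 105896819, minus strand), another Sprouty inhibitor, was highest at t6 and lowest at t48 in each NLS line. It had 10.9, 11.3 and 11.7 CPM at NLS t0 in lines 6, 7 and 16, 12.13, 13.89 and 12.99 CPM at t6 and 9.51, 9.02 and 9.45 CPM at t48. No NLS group overlapped another. It was lower at t48 against t6 (log2 fold change -0.48, SE 0.08, edgeR adjusted p = 0.000839) and against t0 (-0.28, SE 0.08, adjusted p = 0.0266), while t6 against t0 did not pass (0.20, SE 0.08, adjusted p = 0.104). The call at t48 against t0 was lost in 10 of 15 alternative fits, with adjusted p up to 0.144 without line 16.

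Spry4 (ENSMUSG00000024427, chromosome 18, 38586247 to 38601415, minus strand), a further Sprouty gene, had 2.35, 2.05 and 1.34 CPM at NLS t0 in lines 6, 7 and 16, 3.46, 3.47 and 3.58 CPM at t6, and 2.40, 2.13 and 1.65 CPM at t48. The t6 libraries were above the other NLS libraries and nearly equal among lines. The log2 fold change was 0.87 at t6 against t0 (SE 0.19, edgeR adjusted p = 0.00573), -0.76 at t48 against t6 (SE 0.19, adjusted p = 0.00821) and 0.11 at t48 against t0 (adjusted p = 0.743).

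Spred1 (ENSMUSG00000027351, chromosome 2, 117121374 to 117182279, plus strand) brings the RAS inhibitor neurofibromin to the membrane. It had 47.9, 59.6 and 46.7 CPM at NLS t0 in lines 6, 7 and 16, 52.9, 62.8 and 53.6 CPM at t6 and 51.8, 52.4 and 47.7 CPM at t48. The 3 groups overlapped. No time comparison passed (log2 fold change 0.13 at t6 against t0, adjusted p = 0.345; -0.15 at t48 against t6, adjusted p = 0.24; -0.02 at t48 against t0, adjusted p = 0.896, all edgeR). With cell line as a block, t48 against t6 passed, with an adjusted p of 0.0425.

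Etv4 (ENSMUSG00000017724, chromosome 11, 101769742 to 101785371, minus strand) had the smallest p of the members at t6. Its levels in lines 6, 7 and 16 were 13.6, 16.6 and 14.5 CPM at NLS t0, 32.9, 37.3 and 31.9 CPM at t6 and 19.8, 18.7 and 18.6 CPM at t48. The groups did not overlap, with t48 between the other two. The fold at t6 against t0 was 2.29 (log2 fold change 1.19, SE 0.10, edgeR adjusted p = 2.82e-06), and t48 was lower than t6 (-0.84, SE 0.10, adjusted p = 2.63e-05). At t48 against t0 the log2 fold change was 0.36 (SE 0.10, adjusted p = 0.0181), a call lost in 5 of 15 alternative fits, with adjusted p up to 0.222 without line 6.

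Etv5 (ENSMUSG00000013089, chromosome 16, 22381309 to 22439719, minus strand) had 25.4, 36.2 and 25.6 CPM at NLS t0, 38.5, 45.2 and 34.1 CPM at t6 and 29.9, 32.5 and 25.5 CPM at t48, in lines 6, 7 and 16. Each line was highest at t6, but the groups overlapped, with line 7 at t0 above line 16 at t6. At t6 against t0 the log2 fold change of 0.43 (SE 0.14, edgeR adjusted p = 0.0506) missed the threshold, and with cell line as a block it passed (adjusted p = 7.67e-05). At t48 against t6 it was lower (-0.42, SE 0.14, adjusted p = 0.0463), a call lost in 7 of 15 alternative fits, and at t48 against t0 the log2 fold change was 0.01 (adjusted p = 0.961).

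Etv1 (ENSMUSG00000004151, chromosome 12, 38779380 to 38870484, plus strand) had the widest range of the PEA3 factors. Its levels were 4.38, 13.8 and 5.75 CPM at NLS t0 in lines 6, 7 and 16, 10.53, 19.9 and 7.81 CPM at t6 and 1.22, 2.71 and 1.22 CPM at t48. Every t48 library lay below every other library, and line 7 was the highest at each time. It was lower at t48 against t6 (log2 fold change -2.85, SE 0.58, edgeR adjusted p = 0.00566) and against t0 (-2.19, SE 0.59, adjusted p = 0.0246; 0.1 without line 16). At t6 against t0 the log2 fold change was 0.66 (SE 0.47, adjusted p = 0.377), and with cell line as a block it passed (adjusted p = 0.000321). Per line, on a log2 scale of CPM plus 0.1, line 6 gave a t6 difference of 1.25, line 7 of 0.53 and line 16 of 0.43.

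**Figure D2:**
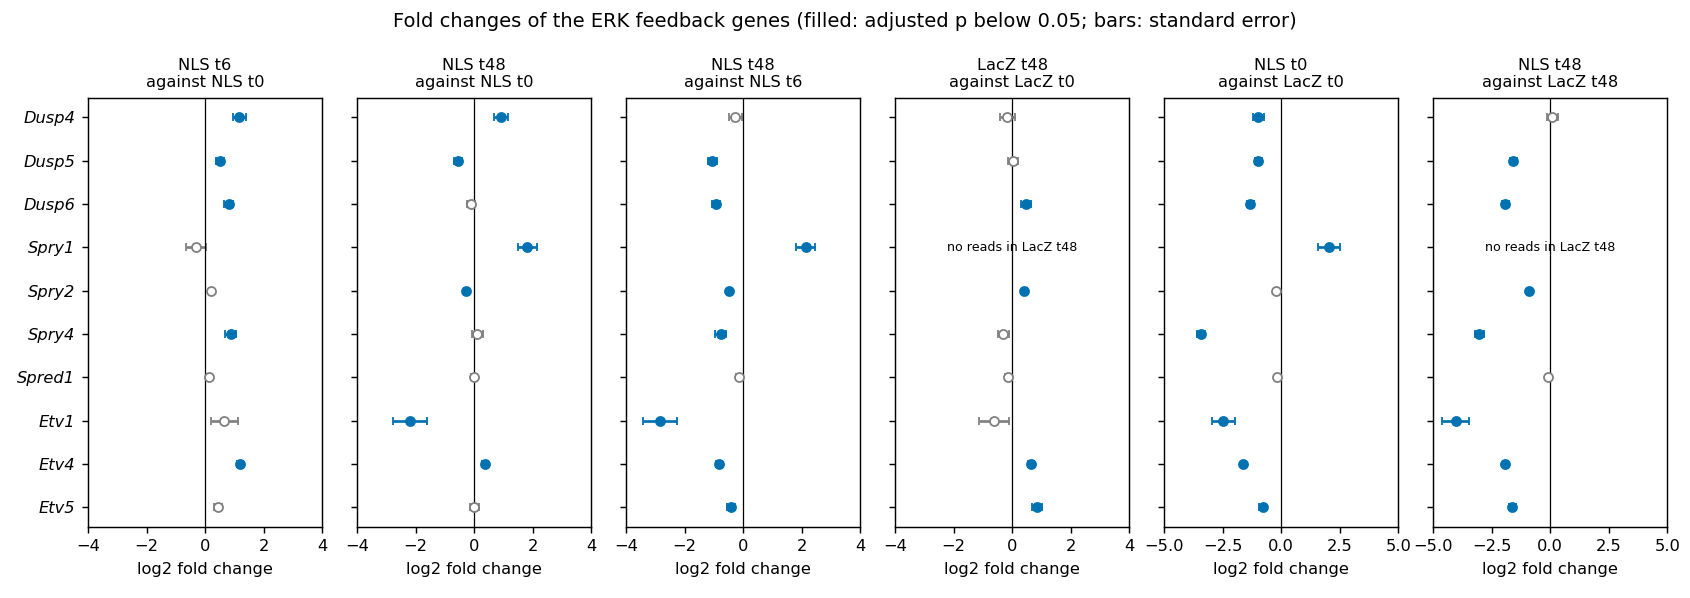
log2 fold change of each ERK feedback gene in the time and construct comparisons, by edgeR; points are estimates, bars are standard errors and filled points have an adjusted p below 0.05, and Spry1 has no point where LacZ t48 is compared, since it had no reads there. At NLS t6 against NLS t0, 5 members are filled on the higher side, with Etv4 at 1.19, and at NLS t48 against NLS t6, 7 are filled on the lower side.

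The LacZ libraries labelled t48 were compared with those labelled t0. Of the 10 members 4 were higher at LacZ t48 against LacZ t0 (Dusp6, Spry2, Etv4 and Etv5) and 1, Spry1, was lower, against 8.68% and 9.87% of all genes by edgeR. Etv5 had 92.1 and 88.7 CPM at LacZ t48 in lines 10 and 12, against 48.1 and 52.3 CPM at LacZ t0 (log2 fold change 0.85, SE 0.17, edgeR adjusted p = 0.00515; 0.0526 without the t0 library of line 10, the only 1 of 10 alternative fits that lost the call). Etv4 had 78.5 and 64.5 CPM at LacZ t48 and 47.3 and 43.7 CPM at LacZ t0 (0.65, SE 0.11, adjusted p = 0.00157). Neither gene overlapped between the LacZ times. Spry2 had 18.2 and 16.7 CPM at LacZ t48, against 13.3 and 12.8 CPM at LacZ t0 (0.42, SE 0.10, adjusted p = 0.0118), a call lost in 3 of 10 alternative fits, with adjusted p up to 0.0872 without the t48 library of line 10. Dusp6 had 44.4 and 34.3 CPM at LacZ t48, against 30.7 and 25.9 CPM at LacZ t0 (0.47, SE 0.16, adjusted p = 0.04995), a call lost in 4 of 10 alternative fits. For Spry2 and Dusp6 too, every LacZ t48 library was above every LacZ t0 library. How many of all genes stood apart in this way was not counted.

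Spry1 had no reads in either LacZ t48 library, against 0.214 and 0.499 CPM (4 and 10 reads) at LacZ t0. With a floor of 3 counts per library, which is 0.16 CPM, it was at least 2.23-fold lower at LacZ t48 (edgeR adjusted p = 0.0111), a call lost in 3 of 9 alternative fits. This bound was 1.34-fold against the t0 library of line 10 alone and 3.12-fold against that of line 12 alone. These are very few reads. Spry1 passed the filter on low counts through the NLS libraries. It was not tested when the LacZ libraries alone were fitted, which leaves it 9 alternative fits. Etv1 had 30.0 and 27.8 CPM at LacZ t48 and 48.3 and 40.3 CPM at LacZ t0 (log2 fold change -0.62, SE 0.52, adjusted p = 0.462), and passed with cell line as a block (adjusted p = 0.00128). Spry4 had 18.62 and 14.99 CPM at LacZ t48 and 21.29 and 20.03 CPM at LacZ t0 (adjusted p = 0.274), Dusp4 5.28 and 3.38 CPM against 5.52 and 4.15 CPM (adjusted p = 0.734), Dusp5 41.5 and 37.7 CPM against 39.1 and 38.1 CPM (adjusted p = 0.914) and Spred1 53.9 and 52.3 CPM against 57.3 and 59.1 CPM (adjusted p = 0.46). With cell line as a block 33% of all genes were called in either direction, against 18.5% without it, and 6 members. Without the t0 library of either LacZ line, or the t48 library of line 10, 2 members were called, among 8.34% to 9.63% of all genes.

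The difference between the constructs in their response at the labelled t48 was tested as an interaction. Spry2 was lower at NLS t48 and higher at LacZ t48, each against its own t0, and the responses differed by -0.70 on the log2 scale (SE 0.13, edgeR adjusted p = 0.00205). Spry1 moved the opposite way, higher at NLS t48 and lower at LacZ t48 (adjusted p = 0.00117, with no fold given because LacZ t48 is at 0). Etv5 differed by -0.84 (SE 0.22, adjusted p = 0.0179): it was higher at LacZ t48 against LacZ t0 and had a log2 fold change of 0.01 at NLS t48. Dusp4 differed by 1.07 (SE 0.36, adjusted p = 0.0447), a call lost in 9 of 19 alternative fits. In all 2 members were higher and 2 lower, against 12.1% and 11.2% of all genes. With cell line as a block 8 members passed, 2 higher and 6 lower, among 37.4% of all genes called in either direction (23.3% without it): Dusp5 (adjusted p = 0.000795), Dusp6 (0.00197), Etv1 (3.17e-05) and Etv4 (0.0462) were the added ones, and their adjusted p without the block lay between 0.0554 and 0.192. Spry4 and Spred1 did not pass (adjusted p = 0.304 and 0.631). The count was 7 without line 7, among 24.6% of all genes, and 2 without the t0 library of LacZ line 10, among 15.4%.

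At the labelled t0 the NLS lines held less mRNA of most members than the LacZ lines. At NLS t0 against LacZ t0, 7 members were lower and 1, Spry1, was higher, against 22.4% and 21.1% of all genes (43.5% in either direction). Spry4 differed most, with 1.34 to 2.35 CPM at NLS t0 and 20.03 to 21.29 CPM at LacZ t0 (log2 fold change -3.42, SE 0.18, edgeR adjusted p = 6.43e-09). Etv1 followed (-2.47, SE 0.49, adjusted p = 0.00319), then Etv4 (-1.61, SE 0.11, adjusted p = 4.53e-08), Dusp6 (-1.31, SE 0.15, adjusted p = 9.23e-06), Dusp5 (-0.98, SE 0.15, adjusted p = 0.000225), Dusp4 (-0.97, SE 0.25, adjusted p = 0.00704) and Etv5 (-0.79, SE 0.16, adjusted p = 0.00151). The libraries of these called genes did not overlap between the constructs, and the share of all genes without overlap was not counted. Spry1 was 4.12-fold higher at NLS t0 (log2 fold change 2.04, SE 0.47, adjusted p = 0.00357), on 4 and 10 reads at LacZ t0. Its log2 fold change was 1.58 without the LacZ t0 library of line 10 and 2.78 without that of line 12. Spry2 (-0.21, adjusted p = 0.085) and Spred1 (-0.18, adjusted p = 0.176) did not pass. Without LacZ t0 line 10, Dusp4 and Spry1 lost their calls (adjusted p = 0.0942 and 0.0513).

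The constructs were also compared at 48 h. At NLS t48 against LacZ t48, 7 members were lower and 1 higher, against 22.2% and 23% of all genes (45.1% in either direction). Spry1 was at least 33.3-fold higher at NLS t48 (edgeR adjusted p = 1.39e-06), Etv1 was lower by a log2 fold change of -4.04 (SE 0.59, adjusted p = 0.000457), Spry4 by -3.02 (SE 0.18, adjusted p = 1.85e-08), Dusp6 by -1.91 (SE 0.15, adjusted p = 1.98e-07) and Etv4 by -1.91 (SE 0.10, adjusted p = 5.38e-09). Etv5 (-1.62, SE 0.15, adjusted p = 3.68e-06), Dusp5 (-1.57, SE 0.16, adjusted p = 4.29e-06) and Spry2 (-0.90, SE 0.09, adjusted p = 2.97e-06) were lower too. The called genes did not overlap between the constructs at 48 h, and here too the share of all genes without overlap was not counted. Dusp4 did overlap, with 3.95 to 5.04 CPM at NLS t48 and 3.38 to 5.28 CPM at LacZ t48 (0.10, adjusted p = 0.777), and Spred1 did not pass (-0.07, adjusted p = 0.631). All 8 calls were kept in 13 of 13 alternative fits. The construct and the cell lines that carry it cannot be told apart, since no line carries both.

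Over the 5 groups the order of mean levels was the same for Etv4 and Etv5, with NLS t0 lowest, then NLS t48, NLS t6, LacZ t0 and LacZ t48. Etv4 showed no overlap between any neighbours in this order, and for Etv5 NLS t48 overlapped NLS t0. Dusp6 ran NLS t48, NLS t0, NLS t6, LacZ t0 and LacZ t48, where the lowest pair overlapped and no other. Dusp5 ran NLS t48, NLS t0, NLS t6, LacZ t0 and LacZ t48, with overlap between the LacZ groups. Etv1 and Spry4 were highest at LacZ t0, and Spry1 had the LacZ groups lowest and NLS t48 highest. For Spred1 every neighbour in the order overlapped. Overlap of groups, here and above, was read for the members alone and was not counted over all genes.

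**Figure D3:**
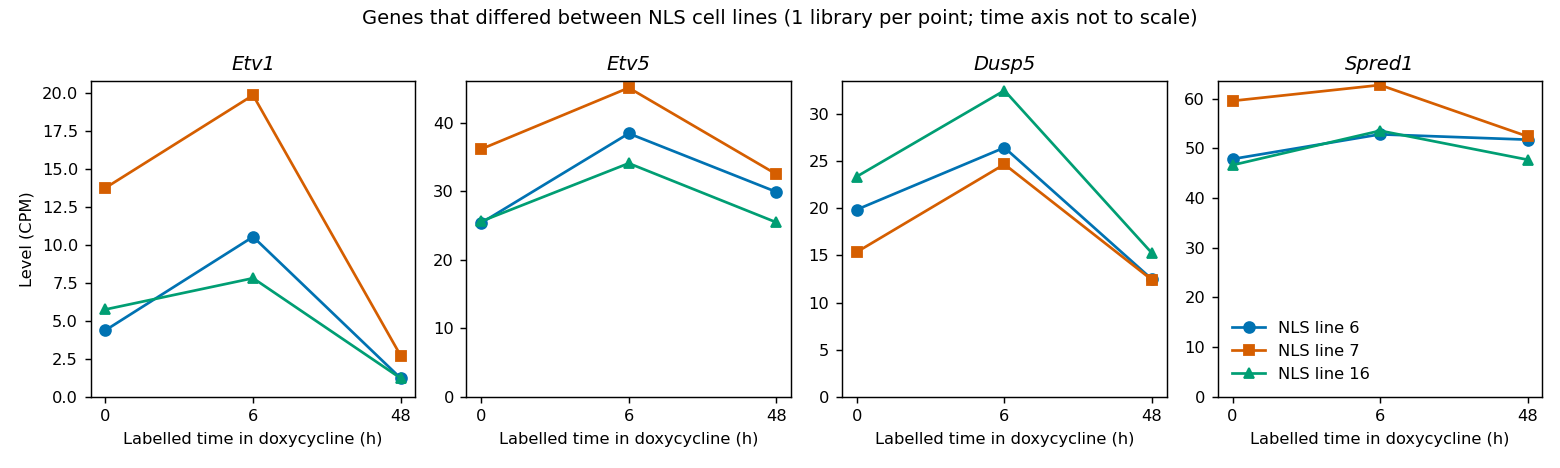
Levels of Etv1, Etv5, Dusp5 and Spred1 in the NLS lines 6, 7 and 16 at the labelled times, in CPM on axes that start at 0; each point is 1 library, lines join libraries of 1 cell line and the time axis is not to scale. Line 7 holds the highest Etv1 at each time, 13.8, 19.9 and 2.71 CPM, and line 16 the highest Dusp5.

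Lines were compared with the time label as a term. Line 7, at 181 to 200 CPM of Adcy10, differed from line 16, at 0.671 to 1.22 CPM, in 4 of 10 members, 3 higher and 1 lower, where 22.6% of all genes were called (11.8% higher and 10.8% lower). Etv1 was 2.45-fold higher in line 7 (log2 fold change 1.29, SE 0.14, edgeR adjusted p = 1.14e-05), Etv5 had a log2 fold change of 0.42 (SE 0.07, adjusted p = 0.000298) and Spred1 of 0.24 (SE 0.06, adjusted p = 0.00625), while Dusp5 was lower (-0.44, SE 0.08, adjusted p = 0.000509). Line 6, with the most Adcy10, had 0 members called against line 16, where 2.26% of all genes were called (0.882% higher and 1.38% lower). By unadjusted p below 0.05 there was 1, Dusp5 (-0.27, edgeR adjusted p = 0.0679), and DESeq2 called 0. Line 6 was lower than line 7 in 3 members and higher in 0, among 11.1% of all genes called (5.19% higher and 5.9% lower). These were Etv1 (-1.21, SE 0.13, adjusted p = 5.53e-05), Etv5 (-0.29, SE 0.07, adjusted p = 0.0108) and Spred1 (-0.20, SE 0.06, adjusted p = 0.0345). The call of Spred1 was lost in 7 of 12 alternative fits and that of Etv5 in 4 of 12, and between lines 7 and 16 that of Spred1 was lost in 4 of 12. Between LacZ lines 12 and 10, edgeR called 0 members, among 0.123% of all genes (0.092% higher and 0.0307% lower), and 3 had an unadjusted p below 0.05 (Dusp4, Dusp6 and Etv4), while DESeq2 gave them no adjusted p. Without the time term the counts for line 7 against 16 and line 6 against 7 were 0, and without the t0 library of line 6 or of line 7 the count for line 6 against 7 was 1.

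Other genes of the pathway were counted from 4 lists. Of 20 genes of the cascade itself, from Egfr to the ERK kinases and their RSK targets, 4 were higher and 1 lower at NLS t6 against NLS t0, where 11.6% of all genes were higher and 9.23% lower. Rps6ka1, a kinase that ERK activates, was at 1.40 ± 0.662, 4.50 ± 0.646 and 4.05 ± 0.708 CPM at NLS t0, t6 and t48 (SD, n = 3 each), a log2 fold change of 1.67 at t6 against t0 (SE 0.25, edgeR adjusted p = 0.000525) and 1.52 at t48 against t0 (SE 0.26, adjusted p = 0.000691). Mapk3, which encodes an ERK kinase, had 167 ± 1.62, 214 ± 6.84 and 147 ± 6.92 CPM at the same times (0.35 at t6 against t0, adjusted p = 0.000247; -0.19 at t48 against t0, adjusted p = 0.0132). Shc1, an adaptor, was higher at t6 (0.19, adjusted p = 0.0216) and Map2k1, which encodes a MEK kinase, was lower (-0.26, adjusted p = 0.00841). At t48 against t0, where 14.8% and 11.3% of all genes were called, 3 were higher and 3 lower, among them Gab1 (0.29, adjusted p = 0.0219) and Braf (0.27, adjusted p = 0.0295) higher and Araf (-0.20, adjusted p = 0.0286) lower. At t48 against t6, 4 were higher and 7 lower, against 14.6% and 13.6% of all genes. The number called was 10 with cell line as a block in each of the comparisons with t0, among 34.7% of all genes at t6 and 39.8% at t48. It was 2 at t6 against t0 without line 16, where 1361 of 12952 genes were called, and 1 at t48 against t0 without line 6, where 12.4% were.

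Of 19 other negative regulators tested, 4 were higher and 1 lower at NLS t6 against NLS t0, where 20.8% of all genes were called in either direction. Dusp9, another ERK phosphatase, was at 2.20 ± 0.339, 7.83 ± 1.43 and 4.54 ± 0.112 CPM at NLS t0, t6 and t48 (SD, n = 3 each; log2 fold change at t6 against t0 1.83, SE 0.19, edgeR adjusted p = 1.8e-05; at t48 against t0 1.04, adjusted p = 0.00126). Spred3 (0.65, adjusted p = 0.00509) and Errfi1, an inhibitor of the EGF receptor (0.29, adjusted p = 0.00515), were higher too, and Dusp1, a phosphatase of stress kinases and ERK, was lower (-0.51, adjusted p = 0.049). At t48 against t0, where 26.1% of all genes were called, 4 were higher and 2 lower, with Dusp2 (1.17, adjusted p = 0.00598) and Dusp10 (0.25, adjusted p = 0.0103) higher and Errfi1 (-0.35, adjusted p = 0.00108) and the RAS GTPase-activating gene Rasa1 (-0.48, adjusted p = 0.0406) lower. At t48 against t6 the counts were 2 higher and 4 lower, among 28.2% of all genes, and 15 in all with cell line as a block, among 41.2%. With the block 9 were called at t6 against t0 (34.7% of all genes) and 12 at t48 against t0 (39.8%). Without line 6, 1 was called at t6 against t0, among 7.71% of all genes.

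Among 11 other ERK output genes, 4 were higher and 0 lower at NLS t6 against NLS t0 by edgeR, where 11.6% of all genes were higher. Egr1, an immediate early transcription factor, was at 59.2 ± 5.16, 84.6 ± 4.59 and 49.9 ± 6.91 CPM at NLS t0, t6 and t48 (SD, n = 3 each; log2 fold change at t6 against t0 0.51, SE 0.09, edgeR adjusted p = 0.00117). Ccnd1, the gene of a D-type cyclin, was at 756 ± 64.8, 978 ± 62.1 and 624 ± 55.4 CPM (0.37, SE 0.07, adjusted p = 0.00317), and the receptor gene Epha2 at 88.3 ± 12.1, 112 ± 7.06 and 61.1 ± 2.54 CPM (0.34, adjusted p = 0.0109). At t48 against t0 Fosl1, a subunit of AP-1 (-0.60, adjusted p = 0.000419), Epha2 (-0.53, adjusted p = 0.000464) and Ccnd1 (-0.28, adjusted p = 0.014) were lower, while Fos, another AP-1 subunit (1.14, adjusted p = 0.0026), and Ier3 (0.28, adjusted p = 0.0114) were higher. Of all genes, 26.1% were called at t48 against t0. At t48 against t6, 6 were lower and 1 higher, against 13.6% and 14.6% of all genes. The median log2 fold change of the list was 0.34 at t6 against t0 and -0.46 at t48 against t6, against 0.00 for all genes in each. The t6 count was 7 with cell line as a block, among 34.7% of all genes, and 1 without line 16, among 1361 of 12952 genes.

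**Figure D4:**
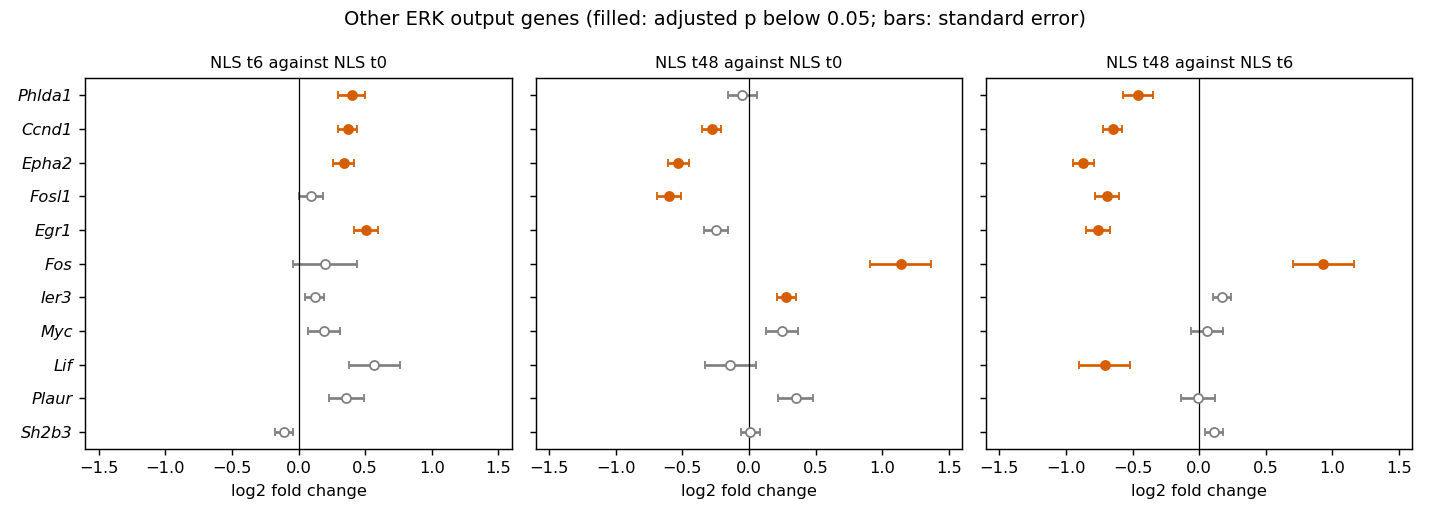
log2 fold change of the 11 other ERK output genes in the 3 NLS time comparisons, by edgeR; points are estimates, bars are standard errors and filled points have an adjusted p below 0.05. Egr1, Ccnd1 and Epha2 lie at 0.51, 0.37 and 0.34 at t6 against t0, and Fos lies at 1.14 at t48 against t0.

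Of 9 other ETS factors tested, 2 were higher and 0 lower at NLS t6 against NLS t0, Etv6 (log2 fold change 0.30, edgeR adjusted p = 0.00662) and Etv3 (0.30, adjusted p = 0.0122), where 20.8% of all genes were called. At t48 against t0 Etv6 (0.37, adjusted p = 0.00115) and Elk1, a partner of serum response factor (0.24, adjusted p = 0.043), were higher and 0 were lower, where 26.1% of all genes were called. With cell line as a block 4 were called in each comparison, among 34.7% of all genes at t6 and 39.8% at t48. Without line 6, 0 were called at t6 against t0, among 7.71% of all genes. Between the constructs at NLS t0 against LacZ t0, the cascade had 3 genes higher and 7 lower, the other negative regulators 4 higher and 6 lower, the output genes 0 higher and 4 lower and the other ETS factors 1 higher and 4 lower, where 43.5% of all genes were called. At NLS t48 against LacZ t48 the counts were 4 and 7, 2 and 5, 1 and 5, and 2 and 2, where 45.1% of all genes were called. Egr1 was at 59.2 ± 5.16 CPM at NLS t0 and 135 ± 0.212 CPM at LacZ t0 (SD, n = 3 and 2; log2 fold change -1.19, edgeR adjusted p = 3.9e-07).

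Genes with the profile most like each member were found by the root-mean-square difference of centred log2 CPM over the 13 libraries, which share the groups and cell lines. For Dusp6 the nearest non-member was Egr1 (0.212), followed by Mast4 (0.239) and Angpt2 (0.245), and for Etv4 they were Angpt2 (0.305), Mast4 (0.307) and Gcnt4 (0.327). The closest pair of members was Dusp6 and Etv4 (0.226). For Etv1 the nearest were Hgf (0.382), Pla2g7 (0.432) and Areg (0.629). The distances are not scaled to the span of a profile, which was 5.2 log2 units for Etv1 and 2.34 for Dusp6. For Dusp5 they were Rbp2 (0.196), Tnfaip8 (0.208) and Ank (0.212), for Dusp4 Foxf2 (0.265), Mfge8 (0.281) and Prr12 (0.285), for Spry2 Axl (0.0879), for Etv5 Pcyt1b (0.192), for Spry4 Tmem74 (0.306) and for Spry1 Anks6 (0.496). Spred1 spanned less than 1 log2 unit and is not named with neighbours.

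Dusp4, Dusp5, Spry2 and Spry4 each have 1 transcript in the deposited tables, so their reads could fall on no other. Dusp6-201 held 94.7% of the Dusp6 reads on average (86.7% to 100% over the libraries) and a non-coding transcript, Dusp6-203, 4.37% (0 to 13.3%). Etv5-201 held 99.8% and Spred1-201 98.7%. The reads of Etv4 were split over several transcripts, with 49.1% on Etv4-201 (0 to 86.5%) and 28.1% on Etv4-202 (0 to 70.1%), and Etv1-201 held 51.4% (0 to 100%). Salmon's shares between near-identical transcripts of 1 gene are estimates. The gene sums used above pool them, whereas TPM weighs each transcript by its own length. The short transcript of Etv4 therefore weighs more in the TPM of that gene than in its reads.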

How the data were processed

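Per the labels' protocols, Trizol RNA went into the Truseq stranded mRNA kit and was read from both ends. The submitters' processing notes name Salmon 1.2.0, which quantifies transcripts, and the build GRCm38; its settings and transcript set were not given in the sources used here. The deposited tables give, per transcript, estimated counts (expected counts, with reads shared among similar transcripts), TPM and an effective length, which is used in 1 alternative. Reads that fit several genes are divided by estimation, so near-identical genes can trade counts.

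Of 116546 transcripts in the deposited tables, 115977 (99.512%) matched the gene annotation GENCODE and were summed to 35498 genes; 0.121% to 0.165% of the estimated reads per library stayed unmatched. Sums were rounded to whole counts. CPM are scaled to the reads of each library on the 13044 tested genes, multiplied by its TMM factor. The 13 libraries were grouped by title into 5 groups, and fitted together with edgeR 4.0.16 (R 4.3.3, limma 3.58.1; TMM, filterByExpr, robust quasi-likelihood), with Benjamini-Hochberg adjustment over 13044 genes and a threshold of 0.05. Lines were compared in a fit with line and construct-specific time terms. SE of edgeR fold changes, also in the figures, are the absolute log2 fold change over the square root of the F statistic. Log2 differences per line use a pseudocount of 0.1 CPM, profiles a prior count of 2 and genes of at least 1 CPM on average. All 10 members are named; from each pathway list came up to 3 genes higher and 3 lower with the smallest p in the comparisons of NLS t6 and t48 with t0, of which 1 is not reported here. The members and lists were chosen with earlier results of these data known, and the counts of list members are descriptions.

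Libraries are paired by cell line number, which the labels repeat for the same cell line. Deviations from the group means correlated across genes between same-numbered NLS libraries at r = 0.025 to 0.282 (9 pairs) and between others at -0.263 to 0.0524 (18 pairs). The 2 same-numbered LacZ pairs gave -0.0201 and the 2 others 0.0201. With 2 libraries per LacZ group these values mirror each other by construction, so they cannot show whether pairing holds there. Replicates differed beyond counting noise, with a chi-square per degree of freedom of at least 7.27 over 11 pairs. Alternatives were DESeq2 1.42.0, its size factors, no filter, effective length offsets, only the groups compared, the line block, no time term, and leaving out each library or line.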

Additional observations from a re-analysis of the deposited data

Results flagged for a closer look

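The response at the labelled t48 differed between the NLS and the LacZ lines in 4 of the 10 members, by the interaction in edgeR with adjustment over all genes, where 23.3% of all genes were called. With cell line as a block 8 members were called, among 37.4% of all genes. Spry1 averaged 5.34 ± 0.638 CPM at NLS t48 and 1.51 ± 0.689 CPM at NLS t0, and was at 0 in both LacZ t48 libraries, against 0.214 and 0.499 CPM at LacZ t0 (adjusted p = 0.00117). Spry2 averaged 9.33 ± 0.267 CPM at NLS t48 and 11.3 ± 0.38 CPM at NLS t0, and 17.5 ± 1.09 CPM at LacZ t48 and 13.1 ± 0.327 CPM at LacZ t0 (adjusted p = 0.00205). Etv5 averaged 29.3 ± 3.56 CPM at NLS t48 and 29.1 ± 6.17 CPM at NLS t0, and 90.4 ± 2.42 CPM at LacZ t48 and 50.2 ± 2.97 CPM at LacZ t0 (adjusted p = 0.0179). Dusp4 averaged 4.63 ± 0.591 CPM at NLS t48 and 2.47 ± 0.705 CPM at NLS t0, and 4.33 ± 1.34 CPM at LacZ t48 and 4.83 ± 0.974 CPM at LacZ t0 (adjusted p = 0.0447), a call lost in 9 of 19 alternative fits. Errors are SD with n = 3 for NLS and n = 2 for LacZ groups. Spry1 at t48 against t0 was higher in 3 of 3 NLS lines and lower in 2 of 2 LacZ lines, and Spry2 was lower in 3 of 3 NLS lines and higher in 2 of 2 LacZ lines.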

How the results depend on the processing

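Of 1445 values of single members under alternatives, 1302 kept direction and side of the threshold, 79 lost a call, 35 gained one and 29 turned direction, 0 of them among called values; the cause was not tested. The number of members called at NLS t48 against NLS t0 was 6, but 3 without line 16, 1 without line 6 and 2 to 5 with a library left out. For the difference of the t48 responses it was 4, but 8 with the replicate block, 7 without line 7 and 2 to 5 with a library left out. At LacZ t48 against LacZ t0 it was 5, and 2 to 4 with a library left out. Line 6 against 7 gave 3, 0 without the time term and 1 to 3 with a library left out; line 7 against 16 gave 4, and 0 without the time term; line 6 against 16 gave 0, and 0 to 1 with a library left out; LacZ line 12 against 10 gave 0, and 1 when the LacZ libraries alone were fitted, while DESeq2 gave no adjusted p for the members there. Leaving out a line other than 16 was chosen after seeing the data. Where 1 library was left in a group, its spread was taken from the other groups.

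The values that turned direction were all uncalled. With a library left out, the log2 fold change ranged from -0.05 to 0.12 for Etv5 in LacZ line 12 against 10, -0.51 to 0.14 for Dusp4 and -0.03 to 0.11 for Dusp5 at LacZ t48 against LacZ t0, and -0.20 to 0.45 for Dusp4 at NLS t48 against LacZ t48. In line 6 against 16 it ranged from -0.07 to 0.09 for Dusp6, -0.26 to 0.33 for Etv1, -0.05 to 0.07 for Etv4, -0.02 to 0.08 for Spred1 and -0.28 to 0.23 for Spry1, and effective length offsets gave -0.16 for Etv1 and -0.09 for Etv4. At NLS t48 against NLS t0 it ranged from -0.08 to 0.20 for Etv5 (-0.09 without line 6), -0.09 to 0.10 for Spred1 (0.07 without line 7) and -0.10 to 0.27 for Spry4, and at NLS t6 against NLS t0 from -0.64 to 0.01 for Spry1 (0.12 without line 16).

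The number of genes called over all 13044 moved more than 1.5 times for several comparisons: 2716 at NLS t6 against NLS t0 (994 without line 6, 4527 with the replicate block), 3402 at NLS t48 against NLS t0 (1592 and 5188), 2419 at LacZ t48 against LacZ t0 (4308 with the block, 1115 without the t0 library of LacZ line 10), and, without the time term, 9 for line 7 against 16 in place of 2950. With 18512887 to 22584628 reads a library, the depth limits Spry1 in the LacZ lines, where 4 and 10 reads set the t0 level.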
